A study of Mus musculus with 10 samples.

Results

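The genes described are the replication-type histone genes of the mouse histone clusters, taken as every gene symbol that begins with Hist1h, Hist2h, Hist3h or Hist4h. The rule found 69 symbols among the 24453 in the table, as 75 of its 34768 rows, and the row with the highest mean stood for each symbol. They comprise 6 genes of the linker histone H1 and 63 core histone genes, of which 19 encode H2A, 19 H2B, 12 H3 and 13 H4. By symbol 55 belong to Hist1, 10 to Hist2, 3 to Hist3 and 1, Hist4h4, to Hist4. In the GRCm38 annotation these lie on chromosomes 13, 3, 11 and 6. Hist1h2al, at chr13:51200084-51203066, lies apart from the other Hist1 members. The symbols include 2 pseudogenes, Hist1h2al and Hist3h2bb-ps. They also take in the variants Hist1h2aa (TH2A), Hist1h2ba (TH2B) and Hist1h1t (the testis H1). The name replication-type thus does not hold for every member, and Hist1h2aa is the most abundant of them.

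The values come from RNA-seq of mouse germinal vesicle (GV) oocytes, the fully grown oocytes arrested in meiotic prophase, on a C57Bl/6J background. Each of the 10 libraries was made from 16 oocytes freed of surrounding cells and pooled from 1 mouse, so p-values measure the spread between mice and pools. The mutant group (Setdb1 f/-; Zp3-cre, 4 mice) carried 1 floxed and 1 deleted allele of Setdb1 together with Zp3-cre, a transgene with a Cre recombinase driven by a promoter active in growing oocytes. The study used 2 kinds of control: 4 mice with 1 floxed and 1 wild-type allele and the same transgene (Setdb1 f/+; Zp3-cre, here the Cre controls), and 2 mice with 1 floxed and 1 deleted allele and no transgene (Setdb1 f/-, here the f/- controls). Mice of the mutant and f/- control groups thus shared the deleted allele, and mutants and Cre controls shared the transgene. Zp3-cre acts in the growing oocyte and not in the cells around it. There the floxed allele of the Cre controls is its target too, so their oocytes can also carry a deleted allele. The genotypes given are those of the mice. The age of the mice is not stated in the labels.

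Replication-type histones package newly made DNA, and their genes are classically transcribed in S phase. Their mRNAs usually end in a conserved stem-loop, bound by SLBP, in place of a poly(A) tail. A fully grown oocyte does not replicate DNA, but it stores histone mRNA and protein for the first divisions of the embryo. Setdb1 encodes a methyltransferase for histone H3 lysine 9.

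The stem-loop is what sets the mRNAs of this class apart, and it is shown for 3 members on which results below turn, as the DNA-sense letters of the GENCODE transcripts, with the paired stem in capitals and the loop in lower case.
Hist1h1d: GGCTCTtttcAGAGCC
Hist1h4c: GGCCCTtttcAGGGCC
Hist2h4: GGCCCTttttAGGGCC
The stem-loop, 16 bases of which 1 pair of the stem and the last base of the loop were left free, was searched on the transcript strand. It was found in 42 of the 68 members with a transcript sequence and in 17 of the 24 that could be tested. The form of Hist1h1d was the commonest, in 26 members. Of the tested members 12 had an annotated transcript that ran more than 100 bases past the stem-loop. The models of Hist1h2aa, Hist1h2ba and Hist2h2bb are 390, 384 and 381 bases long, and the pattern was not found in them. They are shorter than the RefSeq spans of 477, 432 and 493 bases, and the missing bases were not searched. Whether these genes lack the stem-loop thus cannot be said. The other tested members in which it was not found were Hist1h1a, Hist1h2bc, Hist1h3g and Hist2h3b.

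The stretch before the start site is shown for the 3 members with the highest level, the smallest adjusted p against all controls, and the difference between the control groups. Each run is the 250 bases upstream of the RefSeq start, on the gene's strand (GRCm38.p6), with 3 motifs of either strand in capitals. These are the CCAAT box, the TATA box written as TATAAA, and the octamer ATTTGCAT.
Hist1h2aa: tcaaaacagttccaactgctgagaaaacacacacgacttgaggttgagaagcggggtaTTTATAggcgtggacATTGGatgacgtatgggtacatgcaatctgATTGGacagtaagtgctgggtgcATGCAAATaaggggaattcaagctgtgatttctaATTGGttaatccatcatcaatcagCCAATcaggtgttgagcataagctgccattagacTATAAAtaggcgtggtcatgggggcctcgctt
Hist1h1a: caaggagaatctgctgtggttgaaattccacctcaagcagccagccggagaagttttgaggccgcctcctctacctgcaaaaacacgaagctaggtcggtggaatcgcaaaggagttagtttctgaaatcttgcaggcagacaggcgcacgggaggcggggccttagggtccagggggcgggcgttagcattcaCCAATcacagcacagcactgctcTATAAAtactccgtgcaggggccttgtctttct
Hist2h2bb: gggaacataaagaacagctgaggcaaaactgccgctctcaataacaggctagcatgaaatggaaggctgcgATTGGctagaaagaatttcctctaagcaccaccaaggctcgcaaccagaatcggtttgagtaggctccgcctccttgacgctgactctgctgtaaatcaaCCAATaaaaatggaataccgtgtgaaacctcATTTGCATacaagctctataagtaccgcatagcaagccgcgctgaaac
The Hist1h2aa run lies at chr13:23934187-23934436 and holds 4 CCAAT, 2 TATAAA and 1 octamer. It lies within the 280 bases that separate Hist1h2aa from Hist1h2ba, which is transcribed the other way, so both genes share it. The Hist1h1a run, at chr13:23763418-23763667, holds 1 CCAAT and 1 TATAAA. The Hist2h2bb run, at chr3:96269450-96269699, holds 2 CCAAT and 1 octamer and no TATAAA. In promoters of 300 bases (250 before and 50 after the start, both strands, motifs counted independently), CCAAT was found in 54 of 63 from 62 members (85.7%), against 37.4% of all 32851 RefSeq promoters. TATAAA was found in 35 of the 63 (55.6%), against 13.6% of all, and the octamer in 14 (22.2%), against 1.74%. All 14 promoters with an octamer stood before H2A or H2B genes, 7 for each type. CCAAT was found before every H1, H2A, H2B and H3 gene with a promoter but before 3 of 12 H4 promoters. Several of these promoters overlap, as that of Hist1h2aa and Hist1h2ba does, so they are not independent sequences.

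The deposited values are RPKM, read counts divided by transcript length and by the size of the library. From the spacing of low values the libraries held about 45700000 to 72800000 reads, and 10 reads on a transcript of 500 bases corresponded to 0.275 to 0.438 RPKM. The deletion was visible in the targeted gene, since Setdb1 was at 1.31 to 4.06 RPKM in the 4 mutant libraries and at 19.9 to 52.5 RPKM in the 6 controls (log2 difference -3.20, exact two-sided permutation test over 210 splits, p = 0.0048). The oocyte markers, which include Zp3 and Gdf9, summed to 5426 to 5615 RPKM in mutants, 5391 to 6911 RPKM in Cre controls and 7356 and 6236 RPKM in f/- controls. Of these 10 markers 8 had an estimate below 0 in mutants against all controls and 0 passed (limma; 1 had an unadjusted p under 0.05). Against the f/- controls 1, Zp1, fell (limma, adjusted p = 0.019, but 0.067 without f/- control replicate 2). Their part in the differences of the histone genes was not tested.

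Most histone cluster genes were low in these oocytes, and a pair of genes carried most of the signal. Only Hist1h2aa, Hist1h1a and Hist1h2bc averaged 10 RPKM or more, at 185, 63.2 and 21.6 RPKM. Means of 12 further members lay between 2 and 10 RPKM and those of 9 between 0.5 and 2 RPKM. These 24 genes passed the filter of a mean of 0.5 RPKM and were tested. They were 4 genes of H1, 4 of H2A, 7 of H2B, 4 of H3 and 5 of H4. Another 38 members were below the filter but above 0 somewhere, 25 of them below 0.1 RPKM. The remaining 7 (Hist1h2ad, Hist1h2ao, Hist1h2ap, Hist1h3b, Hist1h3h, Hist1h4k and Hist1h4m) were listed at 0 in all libraries. Of the 45 members not tested, 3 reached 1 RPKM in any library, the highest single value being 2.30 RPKM for Hist1h2be in 1 f/- control. Their mutant mean was above the control mean in 18 and below it in 20.

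Near-identical copies limit these values. The share of 50-base windows of a transcript found in no other gene had a median of 69.2% in the tested members and 35.4% in the 44 untested members with a sequence. It was under 50% in 6 of 24 tested and 27 of 44 untested members, and the sources used here do not say how reads matching several genes were treated. Hist1h1a (100%) and Hist1h2aa (97.7%) had almost only windows of their own, whereas Hist1h3g (45.9%) and Hist2h2bb (46.4%) shared over 50% of theirs. Hist2h3c1 and Hist2h3c2 differed by at most 0.0018 RPKM in every library and cannot be read as separate measurements. All windows were taken from GENCODE transcripts, which run far past the RefSeq gene in some tested members. For Hist1h1d these are 7425 against 776 bases and for Hist2h4 1630 against 384. The shares may thus not describe the bases whose reads were counted, also where tested and untested members are set side by side.

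**Figure D1:**
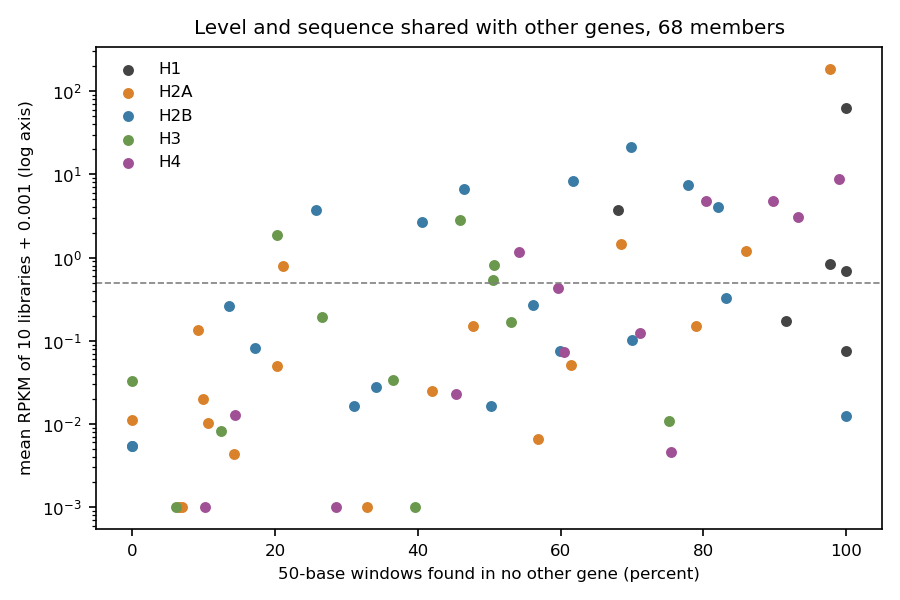
Each point is 1 of the 68 members with a transcript sequence. The horizontal axis is the percent of its 50-base windows found in no other gene, the vertical axis its mean RPKM over 10 libraries plus 0.001 on a log axis, colours are histone types, and the dashed line marks the filter of 0.5 RPKM. Hist1h2aa and Hist1h1a stand at the top right, and most of the members under the line share much of their sequence. Windows are those of the GENCODE transcripts, which can be longer than the sequence that was counted.

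Summed over the members, histone cluster RNA was highest in mutants and lowest in Cre controls. The 69 members summed to 422 to 501 RPKM in the 4 mutants, to 195 to 231 RPKM in the 4 Cre controls, and to 303 and 381 RPKM in the f/- controls, so the 3 groups did not overlap. Hist1h2aa made up 45.8 to 61.4% and Hist1h1a 11.8 to 22.9% of the sum. Without both, the other 67 members summed to 103 to 120 RPKM in mutants and 51.5 to 77.4 RPKM in Cre controls, while the f/- controls, at 107 and 136 RPKM, lay within and above the mutant range. The H1 sum was 76.2 to 108 RPKM in mutants and 47.0 to 59.7 RPKM over the 6 controls. The H2B sum was 60.4 to 64.9 RPKM in mutants, 36.2 to 44.4 RPKM in Cre controls and 68.6 and 73.3 RPKM in f/- controls. RPKM are shares of a library, so a change in other RNA also moves them, and they do not give transcripts per oocyte. Since oocytes were pooled, a difference in every oocyte and a difference in some of them cannot be told apart.

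**Figure D2:**
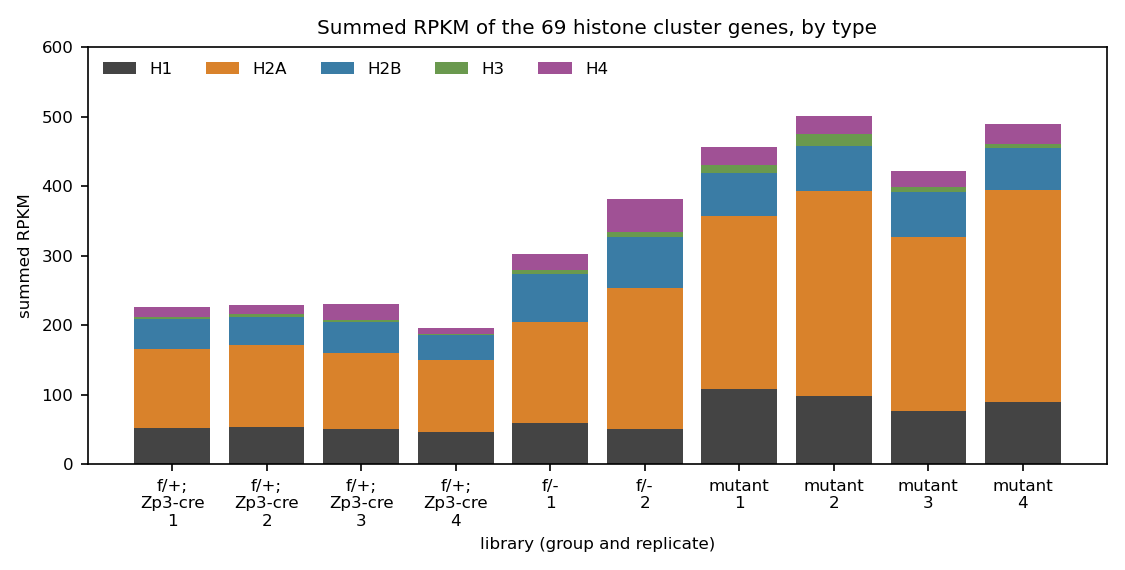
Bars give the summed RPKM of the 69 members in each of the 10 libraries, from 0, stacked by histone type. The mutant bars reach 422 to 501 RPKM, the Cre control bars 195 to 231 RPKM, and most of each bar is H2A and H1.

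Against all 6 controls, 5 of the 24 tested members rose and 0 fell (limma, Benjamini-Hochberg adjusted p under 0.05 over all 11338 tested genes). Over all tested genes 3.1% rose and 2.22% fell in this comparison. The 5 were Hist1h1a, Hist1h1d, Hist1h2aa, Hist1h3g and Hist1h4c, all of the Hist1 cluster. The median log2 difference of the 24 was 0.74, beside 0.03 for all tested genes, and 21 of the 24 estimates were above 0. Of the 24, 4 had a control mean under 0.5 RPKM and none a mutant mean under it, so the filter itself favoured genes that were higher in mutants, and these counts are a description. The 4 were Hist1h1d, Hist1h1t, Hist1h2ag and Hist1h3a. With no filter, over the 62 members above 0 in some library, the median log2 difference was 0.05. Of these 62, 38 averaged under 0.5 RPKM, where the added 0.5 RPKM holds differences near 0. This median and those with no filter given below thus say little about how the members changed. In 4 members all mutant libraries were above all controls (Hist1h1a, Hist1h1d, Hist1h2aa and Hist1h4c), as in 4.62% of all tested genes. In 0 members were all mutants below all controls, as in 3.56% of all tested genes. The count of 5 fell to 2 without mutant replicate 3 and to 3 without mutant replicate 1 or Cre control replicate 1, 2 or 4, and it was 7 without f/- control replicate 2.

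Against the Cre controls alone 7 members rose and 0 fell, where 2.76% of all tested genes rose and 2.13% fell. These were the same 5 with Hist2h2bb and Hist4h4. The median log2 difference was 0.87, beside 0.00 for all tested genes. With no filter this median was 0.05. Hist1h1d, Hist1h1t, Hist1h2ag, Hist1h3a, Hist1h3f and Hist1h4h had a Cre control mean under 0.5 RPKM, so these counts too are a description. All mutants were above all Cre controls in 10 of 24 members, as in 8.86% of all tested genes. The count fell to 4 without mutant replicate 1 or 4 and to 3 without Cre control replicate 1, 2 or 4. Against the f/- controls 3 members rose (Hist1h1a, Hist1h1d and Hist1h2aa), where 3.25% of all tested genes rose, and Hist3h2ba fell, where 1.59% fell. The median log2 difference was then 0.31, beside 0.07 for all tested genes, and 0.05 with no filter. It was -0.03 without f/- control replicate 1 and 0.67 without f/- control replicate 2. Leaving out an f/- control leaves 1 library in that group and moves the number of calls over all genes too. Counts of members from those fits are therefore not given. The 3 comparisons of mutants with controls share the 4 mutant libraries. For f/- controls against Cre controls the median was 0.55, beside -0.07 for all tested genes, and 0.01 with no filter. There 20 of the 24 estimates were above 0 and 1 member, Hist2h2bb, passed, where 0.0441% of all tested genes rose. This comparison shares the Cre control libraries with that of mutants against Cre controls.

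**Figure D3:**
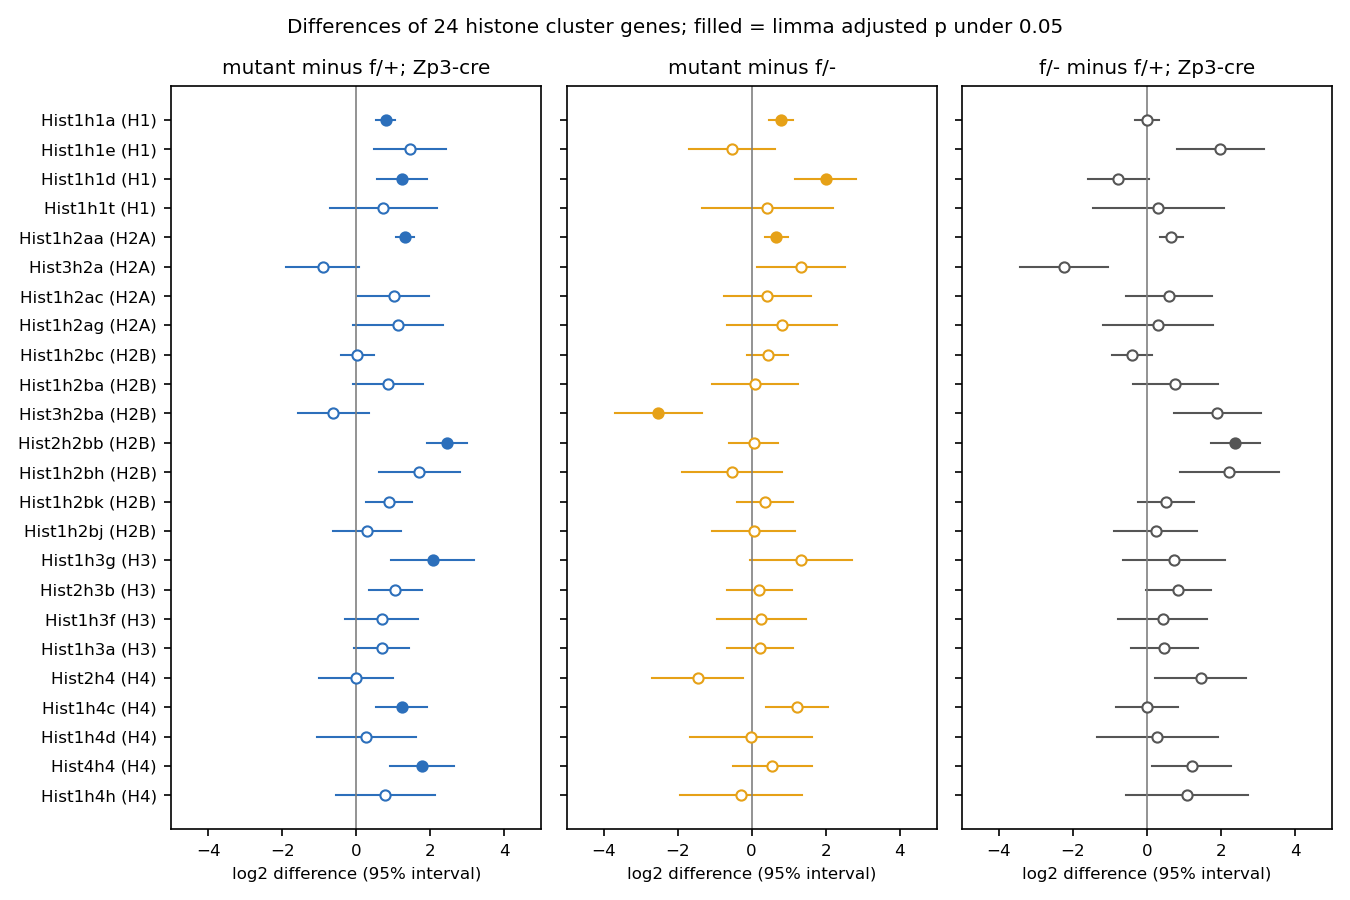
The panels plot log2 differences, on the scale of log2(RPKM + 0.5), for the 24 tested members in 3 comparisons, with 95% intervals from limma. Filled points passed an adjusted p of 0.05: 7 for mutants against Cre controls, 4 for mutants against f/- controls, and Hist2h2bb between the control groups.

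Linker histones bind the DNA at the entry and exit of the nucleosome. Of the 4 tested H1 genes, 2 rose against all controls. Hist1h1a encodes the H1 subtype H1.1 and was the second most abundant member. In the mutants it was at 98.4, 90.9, 71.8 and 78.3 RPKM. In the Cre controls it was at 50.6, 51.7, 47.7 and 44.7 RPKM and in the f/- controls at 52.8 and 44.8 RPKM. The mutants lay above all controls, and both kinds of control covered the same range. The mutant mean of 84.9 ± 12.0 RPKM (SD, n = 4) was 1.74-fold that of the controls (48.7 ± 3.51, n = 6), with a log2 difference of 0.79 ± 0.11 (SE; limma, adjusted p = 0.00076). The control groups differed by 0.00 on this scale (95% interval -0.32 to 0.32). The difference also passed against each control group, with an adjusted p in limma of 0.0023 against the Cre controls and 0.011 against the f/- controls. The latter was 0.062 without f/- control replicate 2.

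Hist1h1d, which encodes H1.3, was low throughout. The mutants were at 1.62, 1.03, 2.15 and 1.91 RPKM, the Cre controls at 0.629, 0.523, 0.296 and 0.243 RPKM and the f/- controls at 0.0280 and 0.0355 RPKM. The mutants were highest, and the f/- controls lay below the Cre controls. By the estimated depth the f/- values stand for about 1.0 and 2.0 reads, against 13.0 to 30.0 reads in the Cre controls and 45.1 to 91.0 in the mutants. With a control mean of 0.292 RPKM and a mutant mean of 1.68 RPKM, Hist1h1d reached the filter of 0.5 RPKM only through the group in which it was high. The log2 difference from all controls was 1.49 ± 0.33 (SE; limma, adjusted p = 0.017, and 0.027 with no filter). It was 1.23 ± 0.31 against the Cre controls (limma, adjusted p = 0.039) and 2.00 ± 0.38 against the f/- controls (limma, adjusted p = 0.011). The f/- controls differed from the Cre controls by -0.77 (limma, adjusted p = 0.39). Without mutant replicate 3 the adjusted p against all controls was 0.057. Against the Cre controls it exceeded 0.05 without any 1 of the 4 Cre controls or of mutant replicates 1, 3 and 4 (at most 0.16).

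The other 2 tested H1 genes did not pass. Hist1h1e, which encodes H1.4, was at 1.55 to 8.01 RPKM in mutants and 0.520 to 2.69 RPKM in Cre controls, and the f/- controls, at 6.82 and 5.76 RPKM, lay within the mutant range. Hist1h1t, the testis H1, was at 4.87 RPKM in mutant replicate 4 and at no more than 0.805 RPKM in any other library.

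H2A and H2B form the dimer that is exchanged most readily in a nucleosome. Hist1h2aa encodes TH2A, a variant known from testis and oocyte, and it was the most abundant member in every library. In the mutants it was at 239.6, 290.0, 246 and 300.8 RPKM. The Cre controls were at 110.1, 114, 105 and 99.2 RPKM and the f/- controls at 143 and 199.7 RPKM. No 2 of the 3 groups overlapped, and the f/- controls lay between the others. The mutant mean, 269 ± 30.7 RPKM (n = 4), was 2.51-fold that of the Cre controls (107 ± 6.36, n = 4) and 1.57-fold that of the f/- controls (171 ± 39.9, n = 2). The log2 difference from all controls was 1.10 ± 0.17 (SE; limma, adjusted p = 0.0015). It was 1.32 ± 0.12 from the Cre controls (limma, adjusted p = 3.8e-05) and 0.66 ± 0.14 from the f/- controls (limma, adjusted p = 0.023). Between the control groups the difference was 0.66 ± 0.14, which missed the threshold (limma, adjusted p = 0.10). Without f/- control replicate 1 the difference from the f/- controls was 0.42 (limma, adjusted p = 0.086), and with the trend on transcript length removed it was 0.31 (adjusted p = 0.44). The annotation places an antisense gene, Gm44344, across part of the Hist1h2aa exon, and reads of either strand cannot be told apart.

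Hist1h2ba, its partner across the shared 280 bases, encodes the H2B variant TH2B. It was at 20.4, 10.8, 9.54 and 3.55 RPKM in the mutants, 5.20, 7.27, 6.14 and 2.55 RPKM in the Cre controls and 7.10 and 11.0 RPKM in the f/- controls. The groups overlapped, and the mutants alone covered the range from 3.55 to 20.4. The log2 difference from all controls was 0.60 (95% interval -0.29 to 1.48; limma, adjusted p = 0.46). Whether this difference is smaller than that of Hist1h2aa was not tested.

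Of the other 3 tested H2A genes none passed in any comparison. Hist1h2ac was at 0.451 to 3.58 RPKM in mutants and 0.401 to 1.05 RPKM over all controls. Hist1h2ag was at 5.08 RPKM in mutant replicate 1 and at most 0.642 RPKM elsewhere. Hist3h2a was at 1.95 to 2.57 RPKM in the Cre controls, at 0.0857 and 0.0813 RPKM in the f/- controls, and at 1.61, 0.665, 2.70 and 0.101 RPKM in the mutants. The f/- values of Hist3h2a, about 2.0 and 3.0 reads, were the lowest of the 10 libraries, and the difference between the control groups (-2.25 on the log2 scale) missed the threshold (limma, adjusted p = 0.12). Its exon overlaps Trim17 on the same strand and Gm44313 on the other.

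None of the 7 tested H2B genes passed against all controls. Hist1h2bc, the most abundant H2B gene, was at 19.7, 18.9, 26.2 and 26.6 RPKM in the mutants, 22.8, 20.3, 27.0 and 19.4 RPKM in the Cre controls and 23.0 and 12.1 RPKM in the f/- controls. The groups overlapped nearly throughout, with a log2 difference from all controls of 0.16 (95% interval -0.27 to 0.59; limma, adjusted p = 0.71). Hist1h2bk was at 3.66 to 5.80 RPKM in mutants, above all Cre controls (1.59 to 3.19 RPKM), with f/- controls at 2.57 and 5.15 RPKM. Hist1h2bh was at 0.780 to 1.32 RPKM in Cre controls, at 5.05 and 8.52 RPKM in f/- controls and at 1.05 to 11.2 RPKM in mutants. Hist1h2bj was at 1.53 to 6.12 RPKM in mutants and 1.37 to 4.46 RPKM over all controls.

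Hist2h2bb, an H2B gene of the Hist2 cluster, separated the groups by the Setdb1 genotype of the mouse, f/- or f/+, and not by Zp3-cre. The mutants were at 6.65, 13.4, 10.7 and 10.3 RPKM and the f/- controls at 8.26 and 11.1 RPKM. The Cre controls were at 1.55, 1.19, 1.26 and 1.74 RPKM. All 6 libraries of f/- mice, mutants and f/- controls, were above all 4 of f/+ mice. This held for 2 of the 24 members (Hist1h2aa is the other) and for 1.82% of all tested genes. The mutant mean was 7.17-fold and the f/- control mean 6.77-fold that of the Cre controls. The log2 difference was 2.45 ± 0.25 between mutants and Cre controls (limma, adjusted p = 9.8e-05) and 2.39 ± 0.31 between the control groups (limma, adjusted p = 0.013). Between mutants and f/- controls it was 0.05, with a 95% interval of -0.61 to 0.72. Between the control groups 0.0441% of all tested genes rose and 0.0265% fell, and Hist2h2bb was the only one of the 24 members to pass. That call was lost without Cre control replicate 1 (limma, adjusted p = 0.081) or 2 (0.057) or f/- control replicate 2 (0.056). The number of members that rose between the control groups was 2 without mutant replicate 4, through the shared estimate of the spread. In that fit 22 of 11355 tested genes rose.

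Hist2h2bb (chr3:96269700-96270192) lies on the chromosome of Setdb1 (chr3:95323525-95357202), 0.912 Mb beyond its end, and the 10 Hist2 members lie 0.863 to 0.912 Mb away. A deleted allele carried by the mouse and the chromosome segment around it cannot be told apart in these groups. The other 2 tested Hist2 members were Hist2h3b, 544 bases from Hist2h2bb, and Hist2h4. Hist2h3b was at 1.87 to 3.09 RPKM in mutants, 0.599 to 1.52 RPKM in Cre controls and 1.34 and 3.15 RPKM in f/- controls, and did not pass (limma, adjusted p = 0.10 against the Cre controls). The annotated exon of Hist2h2bb overlaps Gm20628 on the other strand and Gm42743 on the same strand, so its reads and theirs cannot be told apart.

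Hist3h2ba, an H2B gene of the Hist3 cluster, had its highest values in the f/- controls. They were at 18.6 and 20.6 RPKM, the Cre controls at 5.14, 3.71, 4.71 and 6.31 RPKM and the mutants at 3.25, 4.35, 6.50 and 0.665 RPKM. Both f/- controls were above the other 8 libraries, as in 4.33% of all tested genes, and the mutants overlapped the Cre controls. Mutants were lower than f/- controls by a log2 difference of -2.52 ± 0.54 (limma, adjusted p = 0.022). That p was 0.089 without f/- control replicate 2. The difference between the control groups was 1.90 (limma, adjusted p = 0.16). Its neighbour Hist3h2a had its lowest values in the same 2 f/- libraries.

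**Figure D4:**
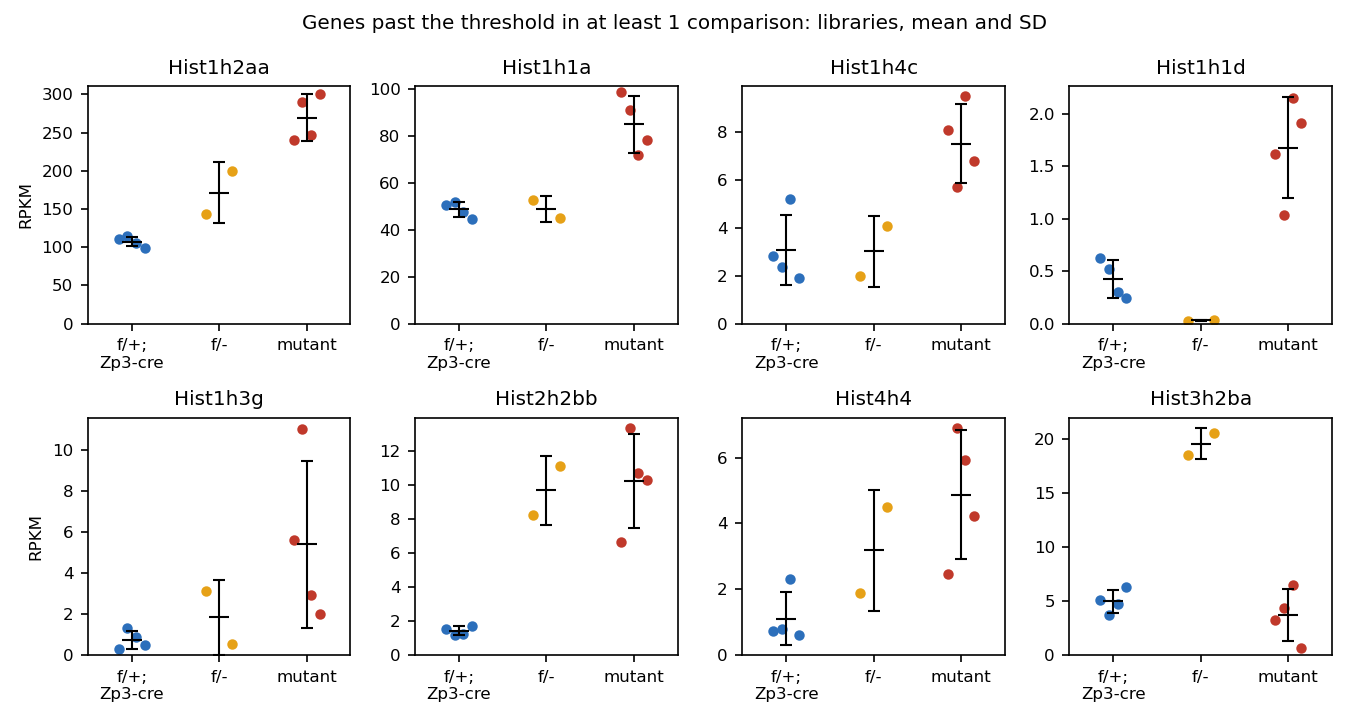
Points are RPKM of single libraries, with the group mean (dash) and SD (bar, n = 4 or 2), for the 8 members that passed in at least 1 comparison, each axis starting at 0. Hist1h1a has both control groups at 44.7 to 52.8 RPKM, Hist1h2aa has the f/- controls between the others, Hist2h2bb has them among the mutants, and Hist3h2ba has them above all.

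H3 and H4 form the central tetramer of the nucleosome. Of the 4 tested H3 genes, Hist1h3g rose. The mutants were at 5.60, 11.0, 2.90 and 2.01 RPKM, the Cre controls at 0.298, 1.31, 0.863 and 0.501 RPKM and the f/- controls at 3.14 and 0.560 RPKM. The mutants were above all Cre controls, and 1 f/- control lay within their range. The log2 difference was 1.82 ± 0.48 from all controls (limma, adjusted p = 0.042) and 2.06 ± 0.52 from the Cre controls (limma, adjusted p = 0.039). Both sat near the threshold. The first exceeded it without any 1 of mutant replicates 1 to 3, the 4 Cre controls or f/- control replicate 2 (at most 0.13), and the second likewise, except that leaving out f/- control replicate 2 did not end it. Hist1h3a, at 0.547 to 0.886 RPKM in mutants, and Hist1h3f, at 0.227 to 2.93 RPKM, did not pass in any comparison.

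Of the 5 tested H4 genes, Hist1h4c rose against all controls and Hist4h4 only against the Cre controls. Hist1h4c was at 8.09, 5.69, 9.53 and 6.78 RPKM in the mutants, 2.82, 2.36, 5.19 and 1.90 RPKM in the Cre controls and 1.97 and 4.07 RPKM in the f/- controls. The mutants were above all controls, and the control groups overlapped. The mutant mean of 7.52 ± 1.66 RPKM (n = 4) was 2.46-fold the control mean of 3.05 ± 1.31 (n = 6), with a log2 difference of 1.23 ± 0.28 (SE; limma, adjusted p = 0.022). The difference from the Cre controls was also 1.23 (limma, adjusted p = 0.045). That from the f/- controls was 1.23 too, without passing (limma, adjusted p = 0.090). The first call was lost without mutant replicate 1 or 3 or Cre control replicate 1, 2 or 4 (adjusted p at most 0.074), and the second without these or mutant replicate 4 (at most 0.16).

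Hist4h4, the lone gene of its cluster, was at 2.45, 6.89, 5.93 and 4.24 RPKM in the mutants, 0.741, 0.787, 2.30 and 0.595 RPKM in the Cre controls and 1.88 and 4.48 RPKM in the f/- controls. The mutants were above all Cre controls and overlapped the f/- controls. The log2 difference from the Cre controls was 1.77 ± 0.40 (limma, adjusted p = 0.026), and that from all controls was 1.37 ± 0.43 (limma, adjusted p = 0.089). The first was lost without mutant replicate 2, 3 or 4 or Cre control replicate 1, 2 or 4 (adjusted p at most 0.10). In the 250 bases before Hist4h4 none of the 3 motifs was found.

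The most abundant H4 gene, Hist2h4, did not pass. It was at 9.60, 8.24, 4.67 and 2.53 RPKM in the mutants, 6.69, 5.36, 9.12 and 3.06 RPKM in the Cre controls, and 8.39 and 31.2 RPKM in the f/- controls. Apart from the single value of 31.2 RPKM the groups overlapped. The log2 difference from the Cre controls was -0.01 (95% interval -1.02 to 0.99). Hist1h4d ranged from 1.35 to 14.5 RPKM over the 10 libraries with its 2 highest values in mutant replicate 4 and f/- control replicate 1, and Hist1h4h was at 6.08 RPKM in f/- control replicate 2 and at most 1.41 RPKM elsewhere.

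**Figure D5:**
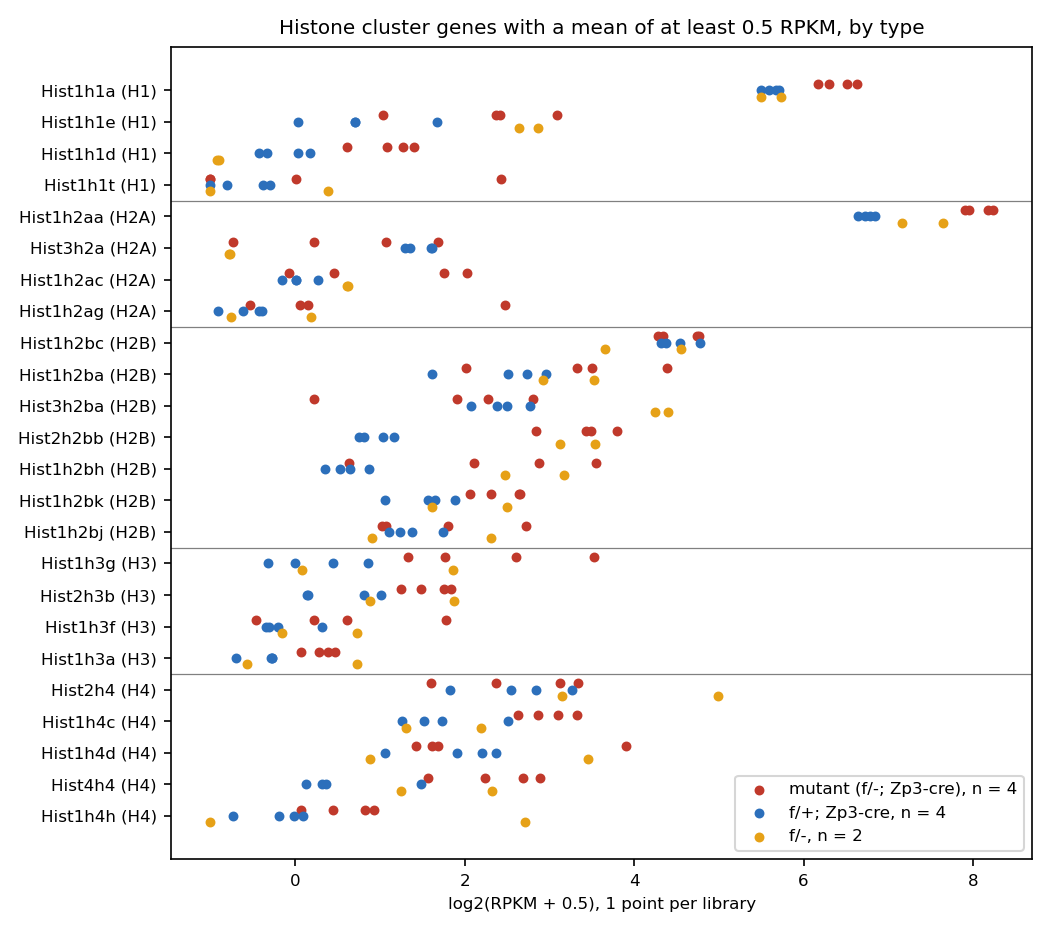
Each row is 1 of the 24 tested members, grouped by histone type, and each point is 1 library on a scale of log2(RPKM + 0.5), coloured by group. Hist1h1a and Hist1h2aa form tight groups at the right, and many lower members scatter widely, more so in mutants than in Cre controls.

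Single libraries with a value far above the rest were found in several members. In 4 of the 24 (Hist1h1t, Hist1h2ag, Hist1h4h and Hist2h4) the highest library was over 3 times the second highest, as in 2.78% of all tested genes. The library was a mutant in the first 2 and f/- control replicate 2 in the others. The SD of log2(RPKM + 0.5) over the 24 members had a median of 0.80 in the 4 mutants and 0.30 in the 4 Cre controls, and it was larger in the mutants for 19 of 24. Over all tested genes the medians were 0.39 and 0.19, so the wider spread in mutants was not limited to histone genes.

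Genes for histone mRNA processing and histone genes of other classes were measured beside the members. Over all tested genes 3.1% rose and 2.22% fell against all controls. Against all controls 0 of 38 tested genes for histone mRNA processing and transcription passed (limma; 5 had an unadjusted p under 0.05), with a median log2 difference of 0.02. Against the Cre controls 1 of the 38 rose, where 2.76% of all tested genes did. Against the f/- controls 1 rose, where 3.25% did, so both counts were near the share of all genes. Zfp473, whose protein acts with the U7 particle that cleaves histone mRNA, was at 27.4 ± 4.05 RPKM in mutants (n = 4) and 16.1 ± 1.97 in Cre controls (n = 4), and it rose against the latter (0.75 ± 0.15; limma, adjusted p = 0.015, but 0.061 without Cre control replicate 2 and 0.070 without Cre control replicate 4). Cstf2t, a testis-rich relative of a polyadenylation factor, rose against the f/- controls (1.41 ± 0.31; limma, adjusted p = 0.024). Without f/- control replicate 2 the difference of Cstf2t was 0.94 (limma, adjusted p = 0.11), and the call was also lost without mutant replicate 3 (0.054) or Cre control replicate 2 (0.051) or 4. Of 13 tested replacement and oocyte histone genes, H2afx, which encodes the variant H2A.X, rose against all controls, and its mRNA is known to exist both with a stem-loop and with a poly(A) tail. H2afx was at 174, 149, 138 and 137 RPKM in the mutants, 92.3, 90.3, 82.7 and 89.5 RPKM in the Cre controls and 112 and 143 RPKM in the f/- controls (log2 difference from all controls 0.57 ± 0.14; limma, adjusted p = 0.034). This call was lost without any 1 of the 4 mutants or of the 4 Cre controls (limma, adjusted p at most 0.10) and after median centring (0.051). Against the Cre controls alone the difference of H2afx was 0.75 ± 0.11 (limma, adjusted p = 0.0017) and stayed past the threshold in all 20 alternatives. As for Hist1h2aa, the f/- values of H2afx lay above the Cre controls, and here 1 of them lay within the mutant range.

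Genes of DNA replication were called at about the share of all tested genes in the comparison with all controls. Of 39 DNA replication genes 1, Orc1, a subunit of the origin recognition complex, rose against all controls and 0 fell, beside 3.1% and 2.22% of all tested genes, with a median log2 difference of 0.06. Orc1 was at 52.7 ± 7.86 RPKM in mutants (n = 4) and 29.1 ± 6.53 in controls (n = 6; 0.87 ± 0.19; limma, adjusted p = 0.015, but 0.053 without mutant replicate 3). Against the f/- controls 3 of the 39 rose, namely Orc1, Rfc3 and Gins1, beside 3.25% of all tested genes. Without f/- control replicate 2 the calls of Orc1 and Rfc3 were lost (limma, adjusted p = 0.12 and 0.19). They were also lost without mutant replicate 1 for both, mutant replicate 3 for Orc1, and mutant replicate 2 or Cre control replicate 1, 2 or 4 for Rfc3. Of 9 markers of proliferating cells 0 rose and 1, Top2a, fell, a call lost without mutant replicate 1, 2 or 3 or any 1 of the Cre controls (limma, adjusted p at most 0.073). Their sum was 393 to 446 RPKM in mutants, 397 to 529 RPKM in Cre controls and 434 and 341 RPKM in f/- controls. The largest part of it was Birc5, at a mean of 221 RPKM over the 10 libraries. Of 15 granulosa and cumulus markers, 8 were tested and 0 passed, with Lhcgr listed at 0 in all libraries. Their sum was 79.8 to 113 RPKM in mutants, 91.8 to 105 RPKM in Cre controls and 76.5 and 81.2 RPKM in f/- controls. Most of this sum was Serpine2, at a mean of 65.6 RPKM over the 10 libraries, so it mainly follows that gene. Of 9 blood, immune and endothelial markers, 5 were tested and 0 passed, with Hba-a1 and Hbb-b1 at 0 throughout. Their sum was 22.1 to 42.9 RPKM in mutants, 29.9 to 40.3 RPKM in Cre controls and 45.4 and 46.8 RPKM in f/- controls.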

How the data were processed

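Values of RPKM were deposited by the authors in 1 table with a column per library. Per the labels' protocols, the steps were an RNeasy Micro extraction, amplification with NuGen Ovation RNA-seq V2 and a TruSeq DNA library, a method that keeps no strand. STAR, bcl2fastq 1.8.3 and mm10 are named in the submitters' processing notes, and the sources used here do not give the counting step. Whether amplification from pools of 16 oocytes adds to the spread of low genes was not tested. Reads per library were estimated from the spacing of low values, of which 67.7 to 71.3% fell within 0.1 of a whole read.

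The row with the highest mean stood for each symbol. Tests used limma 3.58.1 (R 4.3.3) with a trend on log2(RPKM + 0.5), which understates changes of low genes, for the 11338 genes that averaged 0.5 RPKM or more, with Benjamini-Hochberg adjustment over all of them and a threshold of 0.05. All adjusted p-values are from limma. Mutants were compared with all controls in a model with 2 levels. The other 3 comparisons came from 1 model with 3 groups and a shared estimate of the spread. Intervals are 95% intervals from the same fits. The procedure was run on simulated data in which each gene had the same spread in all groups. That does not cover the wider spread of the mutants seen here. Members and lists were chosen with earlier results of these data known. The genes given with values in every library were those that passed in any comparison, the 5 with the highest mean, Hist1h1a, Hist1h2aa and Hist2h2bb, and the gene with the smallest p of each type, 11 in all. Values of other members were chosen after they were seen. Of the lists outside the clusters, up to 4 genes per list that passed in any comparison were eligible to be named. Members were matched to RefSeq (GRCm38.p6) by gene identifier and to GENCODE M21 (GRCm38, the build of mm10) by symbol. The libraries were treated as unpaired. Same-numbered libraries had correlations of deviations of -0.046 to 0.031, and differently numbered ones -0.081 to 0.081. The deviations of the 2 f/- libraries are mirror images, so these values say little about pairing in that group.

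The 20 alternatives were pseudocounts of 0.1 and 2 RPKM, no filter, a filter of 2 RPKM, median centring, quantile normalization, array weights, the sum of a symbol's rows, a replicate block, removal of the trend with transcript length, and leaving out each library. The transcript lengths were those of GENCODE, which differ from the RefSeq spans in some members.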

Additional observations from a re-analysis of the deposited data

Results flagged for a closer look

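Among 24 groups of 4 libraries checked for a value far from the others, Dixon's test picked out 2, and chance alone gives about 1 in 20. Hist4h4 was at 2.30 RPKM in Cre control replicate 3, where the other 3 Cre controls were at 0.595 to 0.787 RPKM. Setdb1 was at 52.5 RPKM in Cre control replicate 4, where the other 3 were at 25.1 to 28.6 RPKM.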

How the results depend on the processing

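No called gene changed direction under any of the 20 alternatives. The median log2 difference of the members from the f/- controls was -0.03 without f/- control replicate 1, 0.67 without f/- control replicate 2, and 0.08 with a filter of 2 RPKM or the length trend removed. Hist1h1a and Hist1h2aa stayed past the threshold in all 20 against all controls and against the Cre controls (limma, adjusted p at most 0.015 and 0.046), and Hist2h2bb did so against the Cre controls (at most 0.0012). The other calls were less stable: Hist1h4c against all controls was kept in 14 of 20 alternatives and Hist1h3g in 9 of 20. Against the Cre controls Hist1h1d was kept in 10 of 19, Hist1h3g in 9, Hist1h4c in 8 and Hist4h4 in 13 of 20. With array weights the calls of Hist1h1a, Hist1h1d, Hist1h2aa and Hist3h2ba against the f/- controls and of Hist2h2bb between the control groups were lost (limma, adjusted p = 0.27, 0.23, 0.33, 0.28 and 0.21). The number of members that rose against all controls was 3 with no filter and 9 with array weights, and 2 to 7 with 1 library left out. Against the Cre controls it was 4 with no filter, and 3 to 7 with 1 library left out. Against the f/- controls it was 0 with array weights, 1 with the length trend removed, and 3 or 4 with 1 mutant or Cre control left out. The number that fell against the f/- controls was 0 with no filter, with array weights and with the replicate block. Leaving out an f/- control leaves 1 library in that group, so counts from those fits are not given. Between the control groups the number that rose was 0 with array weights and with the replicate block, and 0 to 2 with 1 mutant or Cre control left out. The number that fell was then 0 or 1. With array weights 0 of all genes rose or fell between the control groups. Histone mRNA genes that rose against all controls numbered 1 with a pseudocount of 2 RPKM or the length trend removed, 5 with array weights and 0 to 2 with 1 library left out. Replacement histone genes that rose numbered 0 with no filter, median centring or the length trend removed, and 0 to 1 with 1 library left out. DNA replication genes that rose numbered 0 with no filter, 4 with array weights and 0 to 2 with 1 library left out, and those that fell numbered 1 with median centring or quantile normalization. The cause was not tested. Over all genes, 352 rose and 252 fell against all controls. The split was 303 and 339 after median centring, 322 and 337 after quantile normalization and 807 and 581 with array weights. With 1 Cre control left out 236 to 307 rose. Against the Cre controls 313 rose, 807 with array weights and 160 to 238 with 1 Cre control left out. Against the f/- controls 369 rose and 180 fell, and 46 and 6 did so with array weights. With no filter fewer genes rose against each set of controls. Shifts in the counts above under these settings thus cannot be read as specific to histone genes. The sources used here do not say whether the replicate numbers mark shared days or litters, so a call lost under the replicate block is a limit of that call. Calls of Hist1h1d, Hist1h3g, Hist1h4c, Hist2h2bb and Hist3h2ba were lost under it in at least 1 comparison. At 0.275 to 0.438 RPKM for 10 reads on 500 bases, most of the 45 untested members rested on few reads, which limits what their values show.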
